A study of Mus musculus with 115 samples.

Results

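A set of 10 regulators of G-protein signalling was followed in single dentate granule cells of mice after kainic acid (KA) or saline. The genes are Rgs2, Rgs4, Rgs7, Rgs14 and Rgs17 of the RGS family, the Ras exchange factors Rasgrp1, Rasgrf1 and Rasgrf2, and the Rac exchange factors Prex1 and Prex2. They make up 10 of the 22870 genes in the count table. The 10 were selected with their levels in these cells already known, so their differences between groups are given as a description. The study asked how granule cells that project to the opposite hippocampus differ from those that do not, in a mouse model in which the excitotoxin KA is placed in the hippocampus. All mice carried the Rbp4-Cre transgene, received a retrograde EGFP virus (retroAAV-EGFP) in the ventral hippocampus of the contralateral side, and received a Cre-dependent mCherry virus on the ipsilateral side together with either KA or saline. Ipsilateral granule cells were aspirated through a patch pipette 2 weeks later, whether or not they expressed mCherry, and each was sequenced on its own. EGFP+ cells took up the retrograde virus through a contralateral axon, and EGFP- cells did not show the label.

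The 4 groups were KA EGFP+ (27 cells), KA EGFP- (36 cells), saline EGFP+ (5 cells) and saline EGFP- (27 cells). The submitters state that these came from 9, 3, 3 and 3 mice in that order, and no label used here ties a cell to its mouse. Each group therefore counts as 1 sample, the spread between mice is not known, and no test between groups was possible. SDs below are over cells. Binomial intervals count cells as draws, and no interval covers the spread between mice.

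RGS proteins speed up the hydrolysis of GTP by the alpha subunits of heterotrimeric G proteins and so end the signal of a G-protein-coupled receptor. Rasgrp1 loads Ras with GTP in response to diacylglycerol and calcium, Rasgrf1 and Rasgrf2 do so in response to calcium and calmodulin, and Prex1 and Prex2 load Rac with GTP in response to the lipid PIP3 and G-protein beta-gamma subunits. In hippocampal neurons these proteins sit between glutamate and neuromodulator receptors and the ERK and actin pathways, and several of their genes are known to respond to neuronal activity.

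The 10 genes lie on 5 chromosomes of the GRCm38 build: Rgs2, Rgs4, Rgs7 and Prex2 on chromosome 1, Rasgrp1 and Prex1 on 2, Rasgrf1 on 9, Rgs17 on 10, and Rgs14 and Rasgrf2 on 13. Rasgrp1 spans chr2:117279993-117343001, Prex1 chr2:166566342-166713832 and Rgs4 chr1:169741477-169747642, all on the minus strand. No exon of a member overlaps an exon of another gene in the GENCODE annotation, so reads of a member are not shared with an overlapping gene. RefSeq promoters (build GRCm38.p6), each of 300 bases around the gene's start, were matched for 8 of the 10. The 3 printed here belong to the genes with the highest KA over saline differences, all read 5′ to 3′ on the minus strand, from chr2:117342828-117343127, chr2:166713783-166714082 and chr1:169747593-169747892. Capitals mark the half-site of the cyclic AMP response element (TGACG or CGTCA) and the GC box (GGGCGG or CCGCCC).
Rasgrp1: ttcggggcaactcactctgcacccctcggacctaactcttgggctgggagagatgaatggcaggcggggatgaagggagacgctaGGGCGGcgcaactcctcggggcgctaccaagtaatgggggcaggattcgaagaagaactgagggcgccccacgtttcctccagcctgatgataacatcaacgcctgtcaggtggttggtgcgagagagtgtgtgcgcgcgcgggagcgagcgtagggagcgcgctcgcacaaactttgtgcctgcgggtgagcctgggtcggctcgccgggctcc
Prex1: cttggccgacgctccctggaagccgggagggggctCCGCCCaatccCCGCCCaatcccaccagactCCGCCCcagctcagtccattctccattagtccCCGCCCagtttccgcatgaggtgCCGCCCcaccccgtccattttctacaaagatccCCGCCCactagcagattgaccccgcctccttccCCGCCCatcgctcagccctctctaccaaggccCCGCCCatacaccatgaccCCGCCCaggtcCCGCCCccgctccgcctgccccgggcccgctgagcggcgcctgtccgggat
Rgs4: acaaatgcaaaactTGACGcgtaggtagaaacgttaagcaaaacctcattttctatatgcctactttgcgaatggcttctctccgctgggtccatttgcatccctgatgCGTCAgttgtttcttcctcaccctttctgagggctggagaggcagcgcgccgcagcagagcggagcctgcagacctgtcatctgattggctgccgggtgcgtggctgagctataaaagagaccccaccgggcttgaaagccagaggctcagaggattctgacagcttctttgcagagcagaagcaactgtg

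The promoter of Prex1 held 10 GC boxes, that of Rasgrp1 held 1, and that of Rgs4 held none. The half-site, which is part of the full element TGACGTCA, was present at 2 places in the promoter of Rgs4 and in neither of the other two. Both strands were searched. Among the 32851 mouse promoters of the same length, 35.7% held a GC box, 20.8% the half-site and 1.79% the full element. None of the 8 members' promoters held the full element in this window. These matches describe the letters alone.

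Each cell gave between 1277978 and 56183007 counts, with a median of 5221619, and cells were scaled to counts per 1000000 (CPM). Kept cells are those in the table that passed the authors' quality control. That table holds 27 saline EGFP- cells, while the study states 62 sequenced and 57 passed. Of the 95 kept cells, 13 carry a label that says they failed. The median number of genes counted per cell was 6231 in KA EGFP+, 5698.5 in KA EGFP-, 4325 in saline EGFP+ and 4448 in saline EGFP- cells. The numbers in the cells' titles fall into a first series, 1 to 48, and a second, far higher one. The first holds 24 of the KA EGFP+ and 21 of the KA EGFP- cells and no saline cell, and the second holds all saline cells with the other KA cells, in blocks of a single treatment. An effect of KA and one of the first series cannot be told apart, nor can treatment and block within the second.

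The granule cell markers fixed for this work summed to a median of 1303 CPM in KA EGFP+, 1042 CPM in KA EGFP-, 1545 CPM in saline EGFP+ and 3469 CPM in saline EGFP- cells, and 13 or 14 of the 14 were counted in each group. Prox1, which defines granule cells, was counted in 24 of 27, 23 of 36, 2 of 5 and 20 of 27 cells of those groups at equal depth. Microglial markers, 16 genes, moved with the groups. They took a median of 0.0298% of the counts in KA EGFP+, 0.00855% in KA EGFP-, 2.97% in saline EGFP+ and 0.0327% in saline EGFP- cells. They took at least 0.1% in 10 of 27, 5 of 36, 4 of 5 and 12 of 27 cells of those groups. These are called microglia-rich below.

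After KA, EGFP- granule cells had far higher levels of Rasgrp1 and Prex1 than after saline, a higher level of Rgs4 and a lower level of Rgs14. The difference in mean log2(CPM + 1), KA minus saline, was 5.12 for Rasgrp1, 5.16 for Prex1, 2.32 for Rgs4 and -3.16 for Rgs14. A difference of 2 was used as the size worth naming. Of the 10 members, 3 were higher and 1 was lower by at least this, against 7.87% higher and 2.45% lower of all 8880 measured genes. A gene counted as measured where its mean over the cells of both groups was at least 1 on the same scale, which 9 of the 10 members met. Because the members were selected on this contrast, the counts show no more than that selection.

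Rasgrp1, the diacylglycerol-responsive Ras exchange factor, ranged from 0 to 2435 CPM in KA EGFP- cells with a median of 168 CPM, and from 0 to 201.6 CPM in saline EGFP- cells with a median of 0. Its mean log2(CPM + 1) was 5.90 ± 3.95 in KA EGFP- cells (SD, n = 36) and 0.78 ± 2.06 in saline EGFP- cells (SD, n = 27). The groups overlapped, because 8 KA cells had no count and 5 saline cells had some. With every cell thinned to 1000000 counts (called equal depth below, a match in total counts and not in the number of genes per cell), it was counted in 27 of 36 KA EGFP- cells (75%, exact binomial 95% interval 57.8 to 87.9) and in 4 of 27 saline EGFP- cells (14.8%, 4.19 to 33.7). The pooled level was 264.96 CPM after KA and 14.3 CPM after saline. The 5 saline cells with any count were at 201.6, 130, 14.1, 1.71 and 0.978 CPM. Thus 2 of 27 saline EGFP- cells exceeded 100 CPM, against 21 of 36 KA EGFP- cells.

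Prex1, the Rac exchange factor, showed a similar split between cells. It ranged from 0 to 1050 CPM in KA EGFP- cells, median 190 CPM, and from 0 to 413 CPM in saline EGFP- cells, median 0. Mean log2(CPM + 1) was 6.33 ± 3.31 (SD, n = 36) after KA and 1.17 ± 2.54 (SD, n = 27) after saline. At equal depth it was counted in 29 of 36 KA EGFP- cells (80.6%, 64.0 to 91.8) and in 5 of 27 saline EGFP- cells (18.5%, 6.30 to 38.1). The groups overlapped in the 7 saline cells with a count, of which 2 exceeded 100 CPM, and in the 7 KA cells with none. Among the 8880 measured genes, Prex1 and Rasgrp1 stood 7th and 9th from the top of the differences.

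Rgs14 ran the other way. It carries an RGS domain, Ras-binding domains and a GoLoco motif, and is best known in the hippocampus from CA2 neurons, where it limits plasticity. It ranged from 0 to 548 CPM in KA EGFP- cells with a median of 0, and from 0 to 1219 CPM in saline EGFP- cells with a median of 3.51 CPM. Mean log2(CPM + 1) was 1.28 ± 2.91 (SD, n = 36) in KA EGFP- cells and 4.43 ± 4.30 (SD, n = 27) in saline EGFP- cells. At equal depth 6 of 36 cells had it after KA (16.7%, 6.37 to 32.8), and 16 of 27 had it after saline (59.3%, 38.8 to 77.6). Cells without the transcript were common in both groups, so the values overlapped widely. The 8 CA2 markers summed to a median of 1051 CPM in KA EGFP- and 831 CPM in saline EGFP- cells, and 6 of the 8 were counted in each of these groups, with Amigo2 and Sostdc1 at 0 in both. The sum joins markers that went different ways. Mean log2(CPM + 1) of Pcp4 was 7.49 after KA and 8.56 after saline. That of Ptpn5 was 8.08 and 4.10, of Necab2 3.67 and 2.09, and of Map3k15 3.57 and 2.89. Cacng5 and Fgf2 were low in both groups.

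Rgs4, which acts on Gi/o and Gq alpha subunits and is abundant in forebrain neurons, was high in most EGFP- cells of both treatments. It ranged from 0 to 4338 CPM after KA, median 865 CPM, and from 0 to 4873 CPM after saline, median 628 CPM. These ranges nearly coincide, and the difference of means of 2.32 was smaller than the SD over saline cells (4.83). Its transcript was counted at equal depth in 33 of 36 cells after KA and in 20 of 27 after saline. Among cells with a count, the mean log2(CPM + 1) was 9.98 after KA and 9.21 after saline. The difference in means thus lay more in the cells without the transcript than in the level of those that had it.

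The other members differed by less than 2. Rgs7, which works as a complex with the G-protein subunit Gbeta5, was just inside the threshold at 1.97, with 26 of 36 KA and 13 of 27 saline EGFP- cells counted at equal depth. Rasgrf2 differed by 1.55 and Rgs2, which prefers Gq alpha subunits, by 1.07. Rasgrf1 differed by -0.94. It was abundant in both groups, with a median of 440 CPM in KA EGFP- and 1070 CPM in saline EGFP- cells. Rgs17, of the RZ subfamily that acts on Gi/o and Gz, differed by -0.41. Prex2, the other Rac exchange factor, was absent from most cells, counted in 2 of 36 KA and 2 of 27 saline EGFP- cells at equal depth. Its levels differed in those few cells. In saline EGFP- cells 2 exceeded 100 CPM, with a maximum of 409 CPM, while the maximum in KA EGFP- cells was 0.484 CPM.

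**Figure D1:**
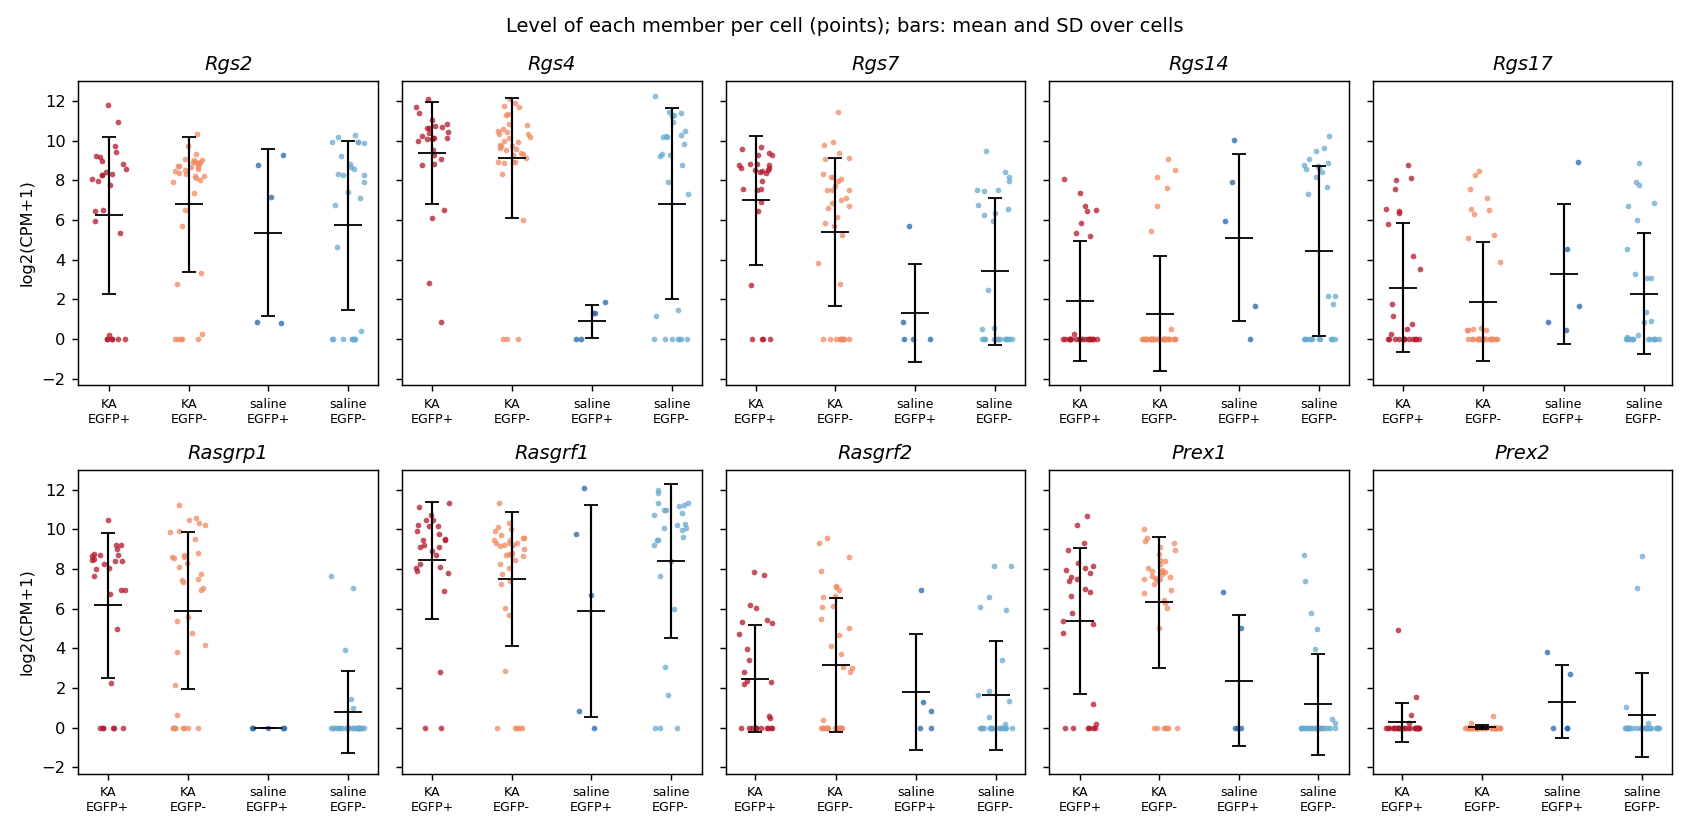
Level of each member, log2(CPM + 1) on the vertical axis, in every kept cell (points) of the KA EGFP+ (27 cells), KA EGFP- (36), saline EGFP+ (5) and saline EGFP- (27) groups, with the mean and SD over cells as bars. Rasgrp1 and Prex1 lie at 0 in most saline EGFP- cells and well above it in most KA cells, Rgs14 was counted in fewer KA than saline cells, and Rgs4 is near 0 in all 5 saline EGFP+ cells.

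The differences changed when the KA cells were restricted to the title series that also holds the saline cells, which left 15 KA EGFP- cells against the same 27 saline cells. Rasgrp1 differed by 4.88, Prex1 by 3.78 and Rgs14 by -3.32, all past the threshold as before. Rgs4 differed by 1.17, inside the threshold. Rasgrf1 differed by -3.02, now past it. In this subset 2 members were higher and 2 lower by at least 2, against 1.85% higher and 13.3% lower of the 8006 measured genes. The median gene shifted by -0.61 here, against 0.46 over all titles. Relative to the median gene, Rasgrp1 differed by 5.50 in this subset and 4.67 over all titles, Prex1 by 4.40 and 4.70, Rgs4 by 1.78 and 1.87, and Rgs14 by -2.71 and -3.61. On that scale Rgs7 differed by -0.05 in the subset and by 1.52 over all titles.

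**Figure D2:**
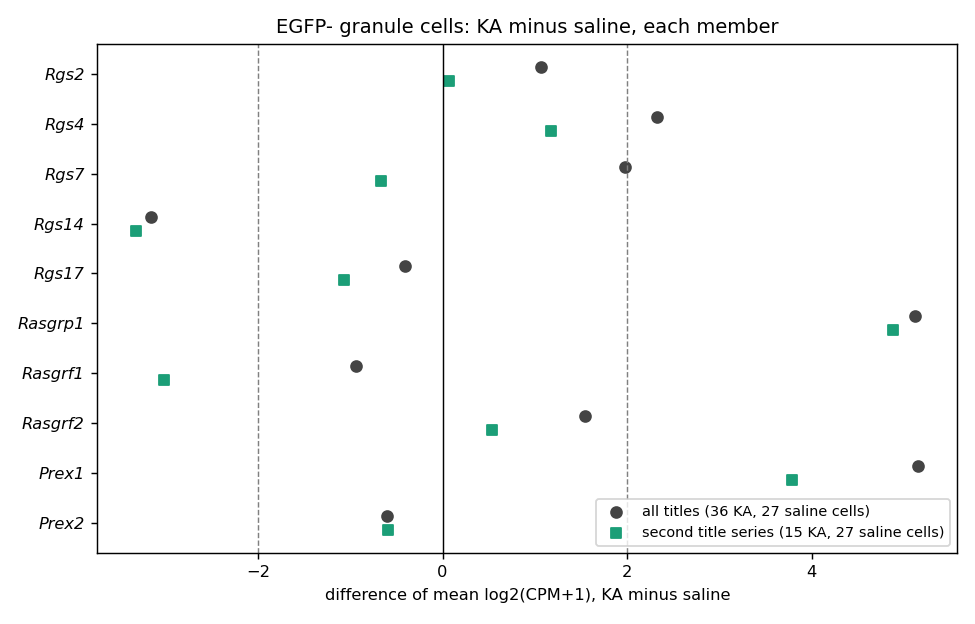
Difference in mean log2(CPM + 1), KA minus saline in EGFP- cells, for each member (rows), over all titles (circles, 36 and 27 cells) and within the second title series (squares, 15 and 27 cells), with dashed lines at 2 and -2. Rasgrp1, Prex1 and Rgs14 are past a dashed line in both sets, while Rgs4 at 2.32 and 1.17 and Rasgrf1 at -0.94 and -3.02 are past it in one.

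The levels of some members in KA EGFP- cells differed between the title series. Rasgrf1 ranged from 153 to 1121 CPM in the 21 KA EGFP- cells of the first title series, none of them at 0, and was absent from 5 of the 15 KA EGFP- cells of the second. The median of Rgs7 was 212.2 CPM in KA EGFP- cells of the first series and 0 in those of the second. Rgs4 was counted in 21 of 21 KA EGFP- cells of the first and 12 of 15 of the second. Prex1 was counted in 20 of 21 of the first and 9 of 15 of the second, Rasgrp1 in 17 of 21 and 10 of 15, and Rgs14 in 4 of 21 and 2 of 15. Both series thus held KA cells with Rasgrp1 and Prex1 and few with Rgs14. The number of genes per cell also moved with the series, with medians of 6974 in the first and 3707 in the second for KA EGFP- cells. The part of this in the members' levels was not tested.

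**Figure D3:**
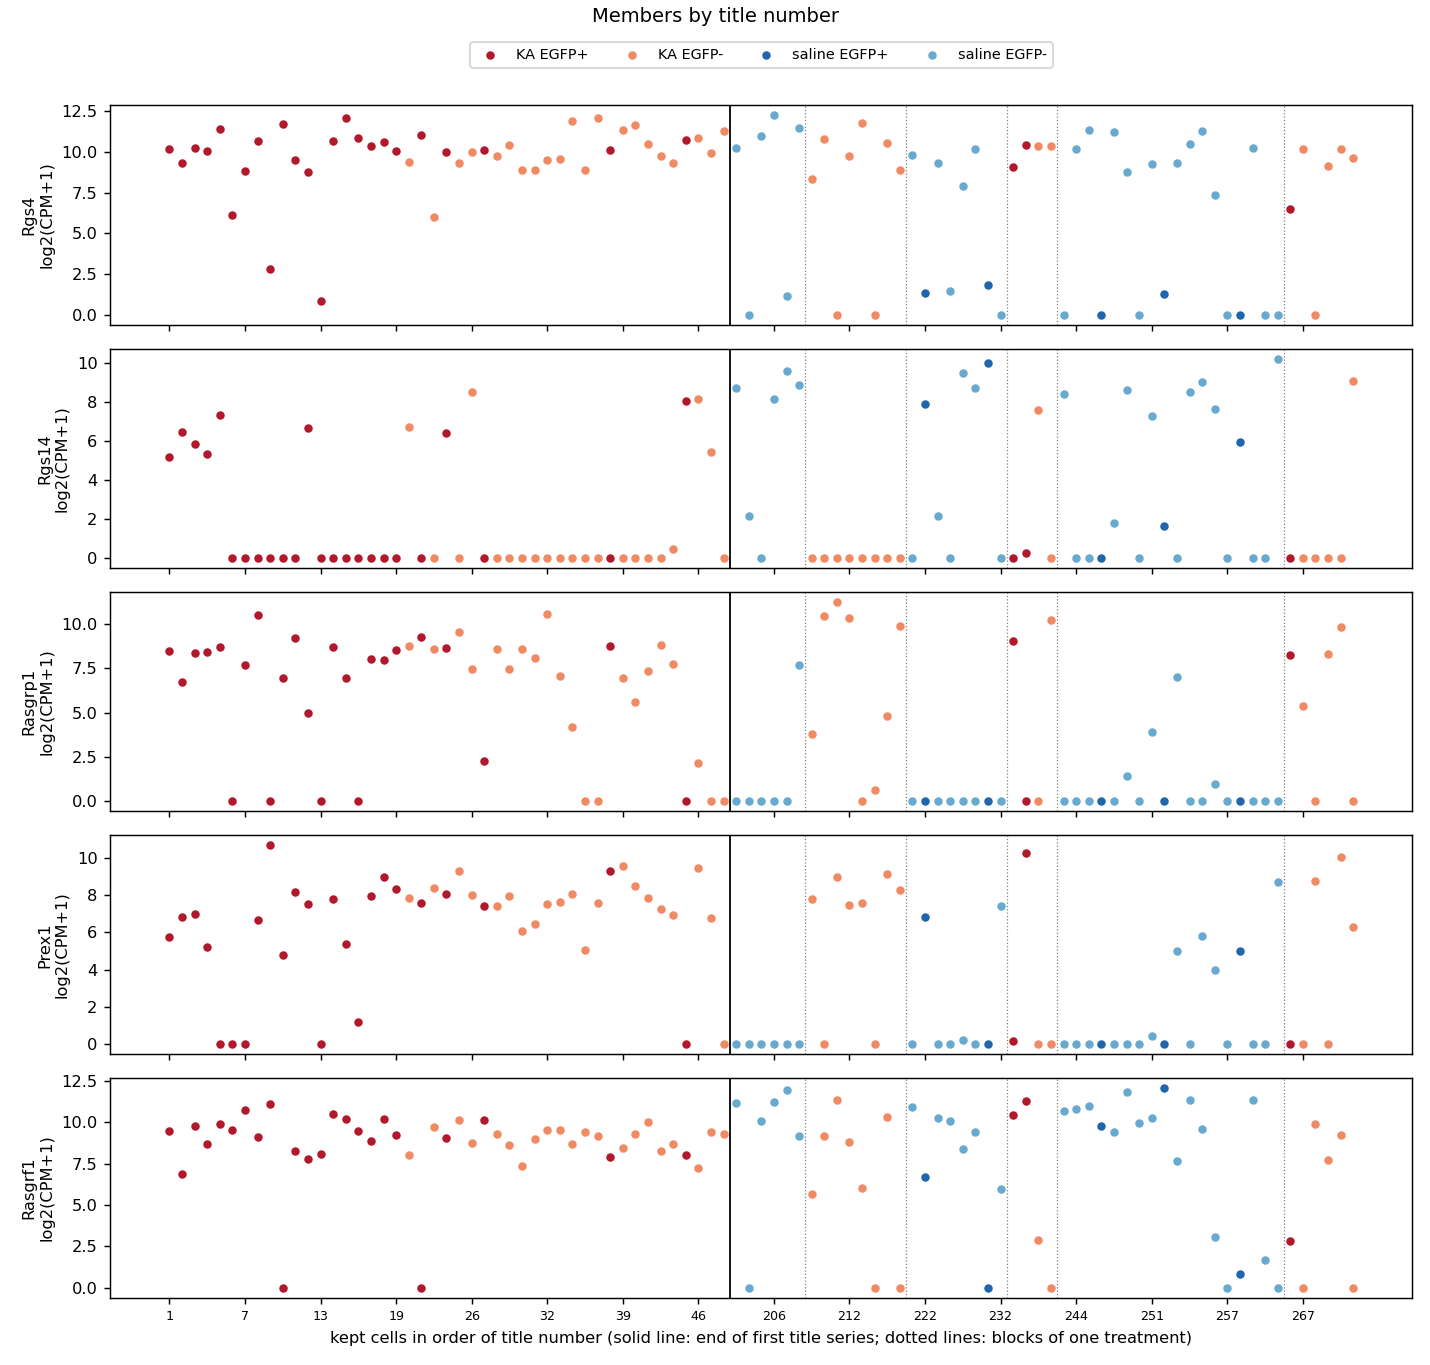
Level, log2(CPM + 1), of Rgs4, Rgs14, Rasgrp1, Prex1 and Rasgrf1 (panels, top to bottom) in the 95 kept cells placed in order of their title number and coloured by group. The solid line ends the first title series and dotted lines separate blocks of one treatment; within the second series the KA blocks hold cells with Rasgrp1 and Prex1 beside saline blocks that mostly hold none.

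Without the microglia-rich cells, 31 KA and 15 saline EGFP- cells remained. Rasgrp1 then differed by 5.95, Prex1 by 5.91 and Rgs14 by -3.80, larger in size than with them. Rgs4 was inside the threshold at 1.84. Rgs7 at 2.86 and Rasgrf1 at -2.58 were past it, so 3 members were higher and 2 lower, 5 past the threshold rather than 4, against 12.8% higher and 3.51% lower of 9009 measured genes.

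The pair Rasgrp1 and Prex1, each counted in most KA cells, was also often counted together. At equal depth both were counted in 18 of 27 KA EGFP+ cells and 23 of 36 KA EGFP- cells, and in 0 of 5 saline EGFP+ and 1 of 27 saline EGFP- cells. The separate shares were 21 of 27 and 27 of 36 for Rasgrp1, and 21 of 27 and 29 of 36 for Prex1, in KA EGFP+ and KA EGFP- cells, and shares this high make joint counts common in themselves. On deviations from the means of each group within its title series, r between the pair was 0.17 over the 95 cells. At least 1 of the pair was counted in 24 of 27 KA EGFP+, 33 of 36 KA EGFP-, 2 of 5 saline EGFP+ and 8 of 27 saline EGFP- cells. Rgs14 and Rasgrp1 were counted together in 7 of 27 KA EGFP+ and 3 of 36 KA EGFP- cells, and in 0 of 5 saline EGFP+ and 3 of 27 saline EGFP- cells. The commonest state was Rasgrp1 without Rgs14 in KA EGFP- cells (24 of 36) and Rgs14 without Rasgrp1 in saline EGFP- cells (13 of 27). The separate shares of Rgs14 were 6 of 36 and 16 of 27 in these groups, and those of Rasgrp1 27 of 36 and 4 of 27. Shares this unequal make such states common in themselves, and r of deviations between Rgs14 and Rasgrp1 was -0.09.

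**Figure D4:**
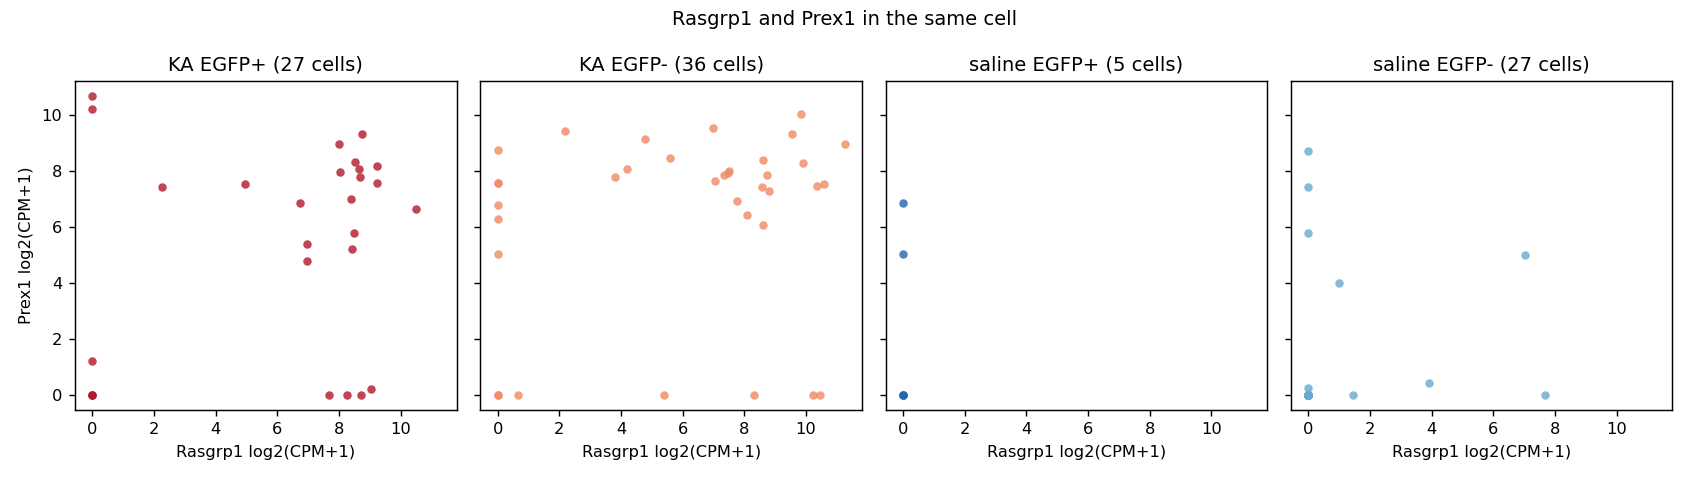
Rasgrp1 (horizontal) against Prex1 (vertical), both as log2(CPM + 1), in each cell of the 4 groups (panels). KA cells gather at the upper right, where both are present, while 19 of 27 saline EGFP- cells had neither at equal depth and lie at or near the origin.

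Between the EGFP classes after KA, no member differed by 2 or more in the mean, against 1.41% of 9280 measured genes that were higher and 0.172% that were lower in EGFP+ cells. Rasgrp1 ranged from 0 to 1431 CPM in KA EGFP+ cells, median 262.4 CPM, and from 0 to 2435 CPM in KA EGFP- cells, median 168 CPM. Its difference, EGFP+ minus EGFP-, was 0.26. Prex1 had medians of 114 CPM in KA EGFP+ and 190 CPM in KA EGFP- cells and differed by -0.95. Rgs4 had medians of 1132 CPM and 865 CPM in the same order and differed by 0.24, and Rgs14 had a median of 0 in both classes and differed by 0.64. For each of these members the ranges of the classes overlapped. Without the microglia-rich cells, which left 17 EGFP+ and 31 EGFP- cells, again no member was past the threshold.

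Rgs7 had the highest difference between the classes after KA, 1.61, with a mean of 6.99 ± 3.26 in KA EGFP+ cells (SD, n = 27) and 5.38 ± 3.74 in KA EGFP- cells (SD, n = 36). It depended on the title series. Within the first series the difference was -0.12 (24 EGFP+ and 21 EGFP- cells), and within the second it was 2.98, over 3 EGFP+ and 15 EGFP- cells. Rasgrf1 behaved likewise, at -0.50 in the first and 2.79 in the second. Within the second series 21.3% of 7099 measured genes were higher in EGFP+ cells by at least 2, and 9.96% were lower. Titles 1 to 19 hold EGFP+ cells only. Within titles 20 to 48, which hold 5 EGFP+ and 21 EGFP- cells, Rgs17 was past the threshold at 2.04 and Rgs7 differed by -0.08. There 4.77% of 9668 measured genes were higher by at least 2, and 10.2% were lower.

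The 5 saline EGFP+ cells had little Rgs4. It was at 1.48, 2.59, 0, 1.45 and 0 CPM in these cells, against a range of 0 to 4873 CPM and a median of 628 CPM in saline EGFP- cells. The groups overlapped at the low end, where 7 saline EGFP- cells had no count, while 18 of 27 saline EGFP- cells exceeded 100 CPM. The difference, EGFP+ minus EGFP- after saline, was -5.93, with means of 0.89 ± 0.84 (SD, n = 5) and 6.82 ± 4.83 (SD, n = 27). Rasgrf1 differed by -2.55 and Rgs7 by -2.10. These 3 of 10 members were lower by at least 2, and none was higher, against 17.2% lower and 5.12% higher of 8163 measured genes. The median gene differed by -0.73.

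The other members varied widely among these 5 cells. Rgs14 was at 236.8, 1052, 0, 2.18 and 61.0 CPM, and Rasgrf1 at 101, 0, 884, 4296 and 0.782 CPM. Prex1 was at 114, 0, 0, 0 and 31.3 CPM. The first 2 cells in this order, which hold the highest Rgs14, carry a label that says they failed. Mean log2(CPM + 1) of Rgs14 was 2.54 ± 3.07 (SD, n = 3) in the cells labelled passed. Rasgrp1 had no count in any of the 5, which allows a share of up to 52.2% of such cells with a count (exact binomial 95% interval). Because 4 of the 5 cells were microglia-rich, 1 was left without them. That cell was set against the mean of the saline EGFP- cells that were not microglia-rich. Rgs4 still differed, by -6.57, while Rasgrf1 differed by 1.64, in the opposite direction. Whether the microglial transcripts bear on Rgs4 was not tested.

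Set against these cells, KA EGFP+ cells had higher Rgs4, by 8.49, Rasgrp1, by 6.16, Rgs7, by 5.69, Prex1, by 3.00, and Rasgrf1, by 2.56, and lower Rgs14, by -3.20. These are 5 members higher and 1 lower by at least 2, against 33.9% higher and 3.93% lower of 9305 measured genes, and the median gene was 1.42 higher. The Rgs14 difference lay largely in the saline EGFP+ cells labelled failed. Its mean was 2.54 in the 3 saline EGFP+ cells labelled passed, beside 1.91 in KA EGFP+ cells. Rgs4 ranged from 0.818 to 4346 CPM in KA EGFP+ cells with a median of 1132 CPM, against the 0 to 2.59 CPM of the saline EGFP+ cells. All but 1 of 27 KA EGFP+ cells lay above all 5 saline EGFP+ cells. Over the pooled counts of each group, Rasgrp1 was at 331 CPM in KA EGFP+ cells. Its absence from 15981396 counts of saline EGFP+ cells puts a floor of 3 counts, 0.188 CPM over the group, under the comparison. Against that floor the pooled level in these KA EGFP+ cells was at least 1764-fold higher, with only counting error considered. This sets no bound for such cells in general. Rasgrp1 had no count in 6 of 27 KA EGFP+ cells, and a single saline EGFP+ cell with it would change the ratio greatly. Relative to the median gene, Rgs4 differed by 7.07, Rasgrp1 by 4.74, Rgs7 by 4.27, Prex1 by 1.58, Rasgrf1 by 1.14 and Rgs14 by -4.62. Without the microglia-rich cells, 17 KA cells against 1 saline cell, Rgs14 differed by 0.12 and Rasgrf1 by -3.35, both with the opposite sign. Of the 27 KA EGFP+ cells, 24 are of the first title series, which has no saline cell. Within the second series, 3 KA cells against 5 saline cells, 4 members were higher and 2 lower by at least 2, against 28.7% higher and 18.1% lower of 7290 measured genes. There Prex1 differed by 1.10, inside the threshold, and Rgs17 by -2.82, past it. Rgs4 differed by 7.79, Rasgrp1 by 5.76, Rgs7 by 4.42, Rasgrf1 by 2.32 and Rgs14 by -5.03. These EGFP+ differences and the EGFP- ones above were not tested against each other.

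Levels of different genes were compared per kilobase of exon. In KA EGFP+ cells Rgs4 was the most abundant at a mean of 411 ± 323 CPM per kb (SD, n = 27), followed by Rgs2 at 120 ± 203.1 and Rasgrf1 at 69.6 ± 59.5. In KA EGFP- cells Rgs4 averaged 400 ± 354 CPM per kb (SD, n = 36), followed by Rgs2 at 91.1 ± 75.1 and Rasgrp1 at 70.6 ± 101. In saline EGFP+ cells the order was led by Rasgrf1 at 95.5 ± 167 CPM per kb (SD, n = 5), Rgs2 at 65.5 ± 75.7 and Rgs14 at 63.8 ± 106. In saline EGFP- cells Rgs4 averaged 324 ± 388 CPM per kb (SD, n = 27), followed by Rasgrf1 at 114 ± 103, Rgs2 at 99.5 ± 114 and Rgs14 at 55.6 ± 74.0. Every pair of neighbours in these orders, Rgs4 and the gene after it included, was closer than the larger of their SDs. Rasgrp1 was the third in KA EGFP- cells, at 70.6 CPM per kb, and the ninth in saline EGFP- cells, at 2.30 ± 8.08 CPM per kb. Prex2 was last or next to last in every group.

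Within a cell, the members did not form one block. A median of 6 of the 10 was counted in KA EGFP+ cells, 6 in KA EGFP-, 6 in saline EGFP+ and 4 in saline EGFP- cells. Pearson's r between members over the 95 cells, computed on deviations from the means of each group within its title series, ran from -0.11 to 0.39 with a median of 0.07 over the 45 pairs. The highest was Rgs2 with Rgs4 at 0.39, both RGS genes of chromosome 1. For comparison, r of a member with the log number of genes counted in the cell ran from 0.07 for Prex2 to 0.43 for Rgs7, and 0.36 for Rgs4, so depth was shared by all of these points. On the plain levels, which include the group differences, Rasgrp1 and Prex1 had r = 0.45.

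By the same measure, among 9846 candidate genes, those most like Rgs4 across the 95 cells were Pcdh8 (r = 0.56), an activity-regulated protocadherin, Plk2 (0.56), an activity-induced kinase, Pfkm (0.56), a glycolytic enzyme, Chgb (0.54), a protein of secretory granules, and Tecr (0.54), a fatty acid elongation enzyme. Those most like Rasgrp1 were Necab3 (0.52), Rps6ka2 (0.49), a kinase downstream of ERK, Atl1 (0.49), 1700003F12Rik (0.48) and Pde4a (0.48), a cyclic AMP phosphodiesterase. Among those most like Prex1 were Dhx8 (0.44), Mapk6 (0.43), Stat3 (0.42) and Mvb12b (0.41). All these points share library and depth.

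The rest of the signalling pathway, in 9 lists of genes, was described by the same comparison of KA over saline in EGFP- cells. As above, 7.87% of all measured genes were higher and 2.45% lower by at least 2 over all titles, against 1.85% and 13.3% within the second title series, and a list with such shares does not differ from the rest of the genes in them. Of the other RGS genes and their partners, 9 of 20 were measured and none was past the threshold, with a list median of -0.02 beside 0.46 for all measured genes. Of the Ras-family GTPases, 23 of 28 were measured and none was past it, with a median of 0.42. The 10 members themselves, with Prex2 included although it was not measured, had a median of 1.31. They were selected on this contrast, so that value is not a comparison with the lists. With lists of this size, counts of 0 are near the share over all genes. Within the second title series 3 of 23 Ras-family GTPases and 1 of 8 of the RGS list were lower by at least 2. Without the microglia-rich cells 1 of each list was higher.

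On the receptor side, 11 of 34 G-protein-coupled receptors were measured and 3 were higher, with none lower. They were the metabotropic glutamate receptor Grm7, by 4.15, the serotonin receptor Htr2c, by 3.31, and the dopamine receptor Drd1, by 2.51. Among 21 of 25 heterotrimeric subunits measured, the gamma subunit Gng4 was higher by 2.88 and the alpha subunit Gna13 differed by -2.02. The median of the subunits, -0.59, was below that of all genes.

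Near Rasgrp1, 17 of 27 genes of diacylglycerol and phospholipase C signalling were measured, 3 higher and 1 lower, with a median of 0.92. All 4 encode diacylglycerol kinases, which remove the lipid that recruits Rasgrp1, and such kinases make up a large part of this list. Dgke was higher by 2.99, Dgkd by 2.40 and Dgkz by 2.15, and Dgkh differed by -2.35. The other measured kinases of this kind were inside the threshold, Dgkg at 0.90, Dgkq at 0.70, Dgki at 0.65 and Dgkb at 0.33. A link of these kinases to Rasgrp1 was not tested. Of the other Ras and Rap exchange factors and GTPase-activating proteins, 24 of 28 were measured, 5 higher and 1 lower, with a median of 0.67. The 3 with the highest differences, Rasal2 (2.68), Rasa3 (2.49) and Dab2ip (2.14), encode GTPase-activating proteins that switch Ras off. Also higher, beyond the 3 taken by the rule for naming, were the exchange factor Rapgef4 (2.12) and the GTPase-activating protein Rap1gap (2.02). The lower one was the Ral exchange factor Rgl1 (-2.37). In the ERK pathway, 22 of 24 were measured, 3 higher and 1 lower, with a median of 0.53. Among the higher were Spred3 (2.88), an inhibitor of the pathway, and the kinase Braf (2.00), and the lower was Mapk3 (-2.32), which encodes ERK1.

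Near Prex1, 26 of 32 genes of the Rac pathway were measured, 4 higher and 2 lower, with a median of 0.22. Among the higher were the Rac effector kinase Pak3, by 2.92, and the exchange factors Dock3, by 2.75, and Dock4, by 2.30. The lower were the exchange factor Dock10, by -2.75, and Wasf1, which encodes WAVE1, by -2.03. Dock10 is also one of the granule cell markers used above. The median of their sum was 1042 CPM in KA EGFP- and 3469 CPM in saline EGFP- cells. Of the phosphoinositide 3-kinase pathway 15 of 20 were measured, 2 higher and 1 lower, with a median of 0.42: Tsc1 (2.73) and the regulatory subunit Pik3r3 (2.13) were higher, and Akt1 (-2.59) was lower. Most of the higher genes did not stay past the threshold within the second title series. Of the 18 higher genes taken by the rule for naming, 3 did, Grm7 (2.15), Dgkz (2.71) and Rasal2 (2.70), and the others ran from 0.77 for Pik3r3 to 1.94 for Htr2c. Of the 7 lower genes, 6 did, from Dgkh (-4.27) to Dock10 (-2.76), and Gna13 did not (-1.30), in a subset in which the median gene was itself lower. Without the microglia-rich cells 16 of the 18 higher genes stayed past the threshold, with Dgkz (1.53) and Dock4 (1.82) inside it, and 5 of the 7 lower genes, with Gna13 (-1.24) and Rgl1 (-1.26) inside it.

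**Figure D5:**
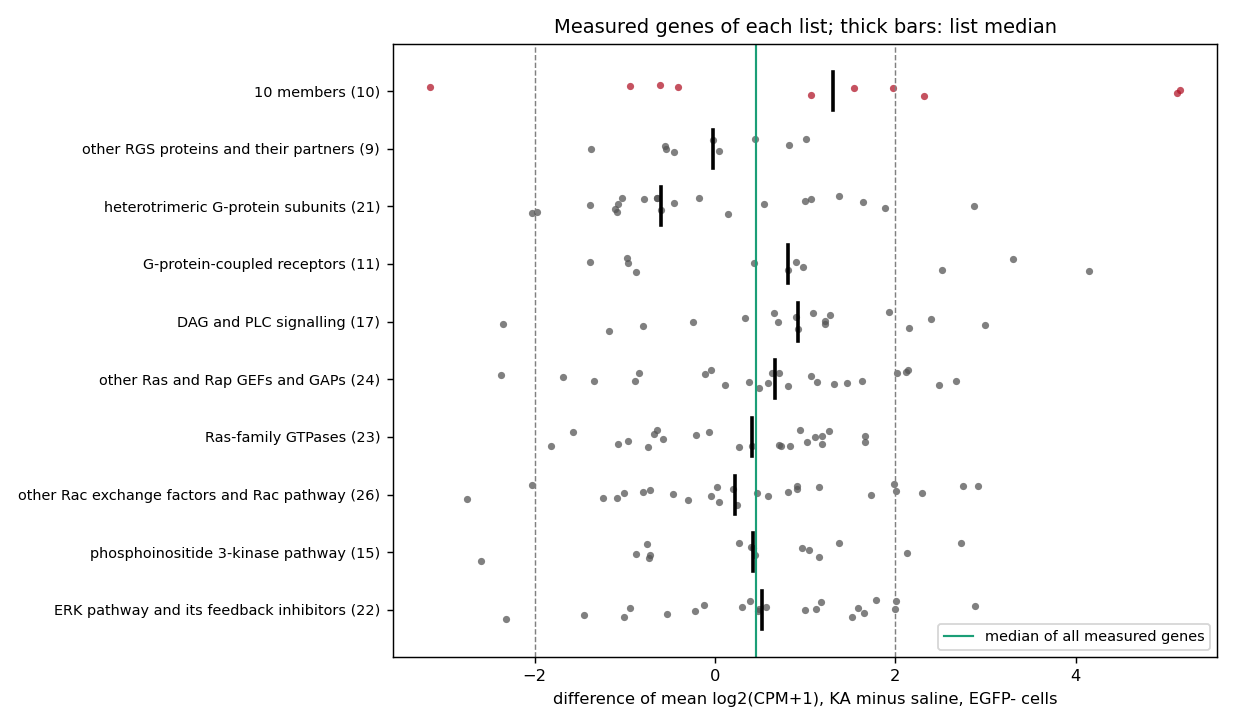
Difference in mean log2(CPM + 1), KA minus saline in EGFP- cells, of all 10 members and of the measured genes of 9 pathway lists (rows, with the number of points), each point a gene, with thick bars at the list medians, a green line at the median of all measured genes (0.46) and dashed lines at 2 and -2. Prex1 and Rasgrp1, at 5.16 and 5.12, lie to the right of every gene in the lists, of which Grm7 at 4.15 is the highest. The members were selected on this contrast.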

How the data were processed

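Single granule cells were sequenced one by one. The authors deposited raw counts per gene for every labelled cell, the counts of those cells that passed their quality control, and a normalized signal for the passed cells. The submitters' processing notes name the GRCm38 build and the tools kallisto, featureCounts, STAR and Trimmomatic, with versions and roles not given in the sources used here. The deposited normalized signal was used as an alternative only, because its factors, 0.118 to 147.5 per cell, are not explained in the sources used here.

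Cells were taken from the quality-controlled table and groups from the labels. Spike-in rows (92, with 6 counts in all) were left out. Counts were scaled to CPM over 22870 genes and means taken of log2(CPM + 1) per group. Since cells are not replicates and no label names the mouse, no test was run. Shares of cells were taken after thinning each to 1000000 counts (seed 7), with exact binomial (Clopper-Pearson) 95% intervals. The floor of 3 counts covers counting error only; the binomial intervals count cells as draws, and neither covers the spread between mice. A gene was named in a pathway list when its difference was at least 2 and of the same sign in the second title series, up to 3 per list and direction, ordered by size. Genes like a member were the 5 with the highest correlation of deviations among genes counted in at least 20% of the cells. A few genes that meet these rules are not reported here. The members and lists were chosen with earlier results of these data known. Alternatives were another normalization, pseudocounts of 0.1 and 10, other thresholds, pooled levels, medians, thinning, subsets of titles, and sets of cells. The difference of means was tested on simulated counts, drawn around the pooled levels of saline EGFP- cells. The draws did not copy the split between cells with and without a transcript, so the test does not cover it. Python 3.11.15, numpy 2.4.6, pandas 2.3.3, scipy 1.17.1 and matplotlib 3.10.9 were used.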

Additional observations from a re-analysis of the deposited data

Results flagged for a closer look

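Among the 5 saline EGFP+ cells, Rgs7 was at 5.69 on the log2(CPM + 1) scale in 1 cell, and the next highest was at 0.83. The gap was 0.853 of the group's range, above the critical value of 0.71 for 5 values. Rasgrf2 was at 6.95 in the same cell, and the next highest was at 1.29, a gap of 0.814 of the range. That cell also had 114 CPM of Prex1, and it carries a label that says it failed quality control. Of the 10 members, 9 could be examined in this way, Rasgrp1 having no count in the group. The critical value flags about 1 in 20 groups by chance where values follow a normal distribution. Most of these cells had little or no count of Rgs7 and Rasgrf2, so that rate cannot be taken to hold here. Whether the gaps are unusual for such levels was not tested.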

How the results depend on the processing

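The counts of members past the threshold varied with the settings as follows. For KA over saline in EGFP- cells, 4 became 2 with a pseudocount of 10, 7 at a threshold of 1, 6 with a pseudocount of 0.1, 3 at a threshold of 3, 3 with cells also labelled passed, and 5 with the authors' normalized signal, thinned counts, medians or no microglia-rich cells; 6 other settings gave 4. For EGFP+ over EGFP- cells after KA, 0 became 1 with a pseudocount of 0.1, 1 within titles 20 to 48, 2 within the second title series and 1 at a threshold of 1. Within titles 20 to 48, 4.77% of all measured genes were higher by at least 2 and 10.2% lower. Within the second series these shares were 21.3% and 9.96%, so the member counts there do not stand out from them. For EGFP+ over EGFP- cells after saline, 3 became 1 with a pseudocount of 10, 5 with pooled CPM, 1 with all labelled cells regardless of quality control, 5 at a threshold of 1 and 1 at a threshold of 3. Leaving out each saline EGFP+ cell in turn gave 1 to 3, with 1 without cell 2 and 1 without cell 5. For KA over saline in EGFP+ cells, 6 became 3 with a pseudocount of 10, and 4 to 6 when each saline EGFP+ cell was left out, 4 without cell 2. Without the microglia-rich cells, which left 1 saline EGFP+ cell, Rasgrf1 reversed to 1.64 (EGFP+ over EGFP- after saline) and -3.35 (KA over saline in EGFP+), and Rgs14 to 0.12 in the second of these. With the authors' normalized signal the counts were 4 (EGFP+ over EGFP- after saline) and 7 (KA over saline in EGFP+). For the pathway lists, in alternatives chosen after seeing the data, the second title series gave 1 gene past the threshold against 0 for the RGS list, 7 against 2 for G-protein subunits, 1 against 3 for receptors, 2 against 4 for diacylglycerol signalling and 3 against 0 for Ras-family GTPases. Without microglia-rich cells there were 1 against 0 for the RGS list, 1 against 2 for G-protein subunits, 1 against 0 for Ras-family GTPases and 8 against 4 for the ERK pathway. The causes were not tested. Over all 610 alternative values of single members, 598 kept their direction or moved by less than 1 SD over cells, 9 moved further and 3 reversed. That SD was wide, for Rasgrf1 3.39 in KA and 3.89 in saline EGFP- cells, so a change of sign could count among the 598. All 13 alternatives for Rasgrf1 in this contrast did so, although they ran from -3.02 to 0.27. The tally is therefore no measure of stability. For KA over saline in EGFP- cells, the difference ran from 3.16 to 7.40 for Rasgrp1, 3.03 to 7.57 for Prex1, 0.46 to 3.29 for Rgs4 and -4.48 to -1.73 for Rgs14 over 13 alternatives. No paired analysis was possible because replicate numbers only name cells and no label ties a cell to a mouse. Limits lie in the unknown mouse of each cell, the 5 saline EGFP+ cells, and the title series, which hold the treatments unevenly.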

Other observations

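The 20 labelled cells that are absent from the quality-controlled table had between 17 and 1287711 counts. Rasgrp1 and Prex1 had no count in any of them, including the 2 KA EGFP+ and 2 KA EGFP- cells. Rgs4 was counted in both KA EGFP+ cells, at a pooled level of 856 CPM, in neither KA EGFP- cell, in neither saline EGFP+ cell, and in 5 of 14 saline EGFP- cells, at a pooled level of 540 CPM.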
